A study of Mus musculus with 19 samples.

Results

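Whether losing both Ager and Myd88 changes the resected liver by the sum of what each loss does alone was examined in 19 mouse livers. The measure was the interaction of the 2 deletions, computed for each gene as the difference between the double null and the Ager null minus the difference between the Myd88 null and the wild type. All 19 arrays of the series enter this quantity, so its members are the whole series, read along 1 contrast of the 4 genotypes. The animals were male C57BL/6 mice of 10 to 12 weeks, studied 2 h after an 85% hepatectomy. The WT group, wild type at both loci, had 5 mice, the Ager_null group 6 and the Myd88_null group 4, and 4 mice carried both null genotypes (Ager_Myd88_null). The labels name the strain and the null genes only, and say nothing of how the alleles were made or whether the groups were littermates. All mice had been resected, and no liver without resection was analysed here. Each array held the RNA of 1 mouse as the labels describe it, so arrays were treated as separate animals.

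RAGE, the product of Ager, sits on the cell surface and binds HMGB1 and S100 proteins, which injured cells release, as well as glycated proteins. Toll-like receptors and receptors of the IL-1 family recruit Myd88, an adaptor, to activate NF-kB and MAP kinases, and in the resected liver this route in Kupffer cells feeds the cytokine signals that prime hepatocytes to divide. On the log2 scale used throughout, deletions that act independently add up: the double null then lies at the additive value, Ager_null plus Myd88_null minus WT. A negative interaction means that the double null lies below that value, and a positive one that it lies above.

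The values were log2 levels from Affymetrix mouse expression arrays, as deposited, and 8515 of 18193 genes were tested, those over log2 4 on at least 4 arrays. Myd88 lay between 5.24 and 6.39 on the 11 arrays with the gene and between 2.60 and 3.86 on the 8 arrays without it, as its labels say. The 2 Ager probe sets had group means of 3.10 to 3.37 and 2.19 to 2.52, below the filter in all 4 groups, and so check nothing about the Ager labels. Hepatocyte markers were present on every array, with 11 or 12 of 12 over log2 4, and none of the 11 T and NK cell markers on the array was over that level. The labels' extraction text speaks of glomeruli, while 1 or 2 of 12 kidney markers were over log2 4. One array was unlike the rest: Myd88_null 4 had a median correlation with the other arrays of 0.965, and each of the others one of at least 0.979. The sample descriptions carry an S number from 1 to 20 whose meaning is not stated. For use as a block these numbers were cut into S 1 to 6, 7 to 12 and 13 to 20. The cut points were chosen here, are not in the labels, and others were not tried. All 6 Ager_null arrays lie in S 13 to 20 and all 4 Ager_Myd88_null arrays in S 1 to 12. None of these ranges thus holds the 4 groups, and no interaction within one of them could be computed.

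The interaction passed the test for 205 of the 8515 genes, which is 2.41% of those tested (limma, Benjamini-Hochberg adjusted p under 0.05, two-sided). The estimate was negative for 156 genes and positive for 49. The leading pattern was a level raised in each single null and back near WT in the double null: in 154 of the 156 genes with a negative interaction both single-null means lay above WT. Among these 156 genes the median difference from WT was 0.61 in Ager_null, 0.69 in Myd88_null and 0.04 in Ager_Myd88_null, and for 139 of them the double-null mean lay within 0.5 of WT. The 49 genes with a positive interaction showed the mirror image, with both single-null means below WT in 46, median differences of -0.59, -0.44 and 0.07, and 47 double-null means within 0.5 of WT. Among all tested genes both single-null means lay above WT in 3515 and below it in 2545, and the double null lay within 0.5 of WT in 8009. The choice of genes by their interaction favours such patterns, since both single-null means enter it with the opposite sign to WT and the double null, so these counts are a description without a test.

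With a difference of 0.5 from WT as the bound for raised or lowered, 76 of the 205 genes were raised in both single nulls and within 0.5 in the double null. A further 35 stayed within 0.5 of WT in all 3 null groups, 21 were raised in Myd88_null alone, 16 were raised in Ager_null alone and 19 were lowered in Ager_null alone. In 12 genes both single nulls were lowered and the double null was near WT. In 6 genes the level was raised in all 3 null groups. Over all tested genes, whatever their interaction, 258 were raised in both single nulls and within 0.5 in the double null, and 50 were raised in all 3. The 4 pairwise comparisons behind the interaction made 13 to 208 calls: 34 genes (0.399%) for Myd88_null against WT, 107 (1.26%) for Ager_null against WT, 208 (2.44%) for Ager_Myd88_null against Ager_null and 13 (0.153%) for Ager_Myd88_null against Myd88_null. These comparisons share groups, so their counts are not independent of the interaction or of each other.

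**Figure D1:**
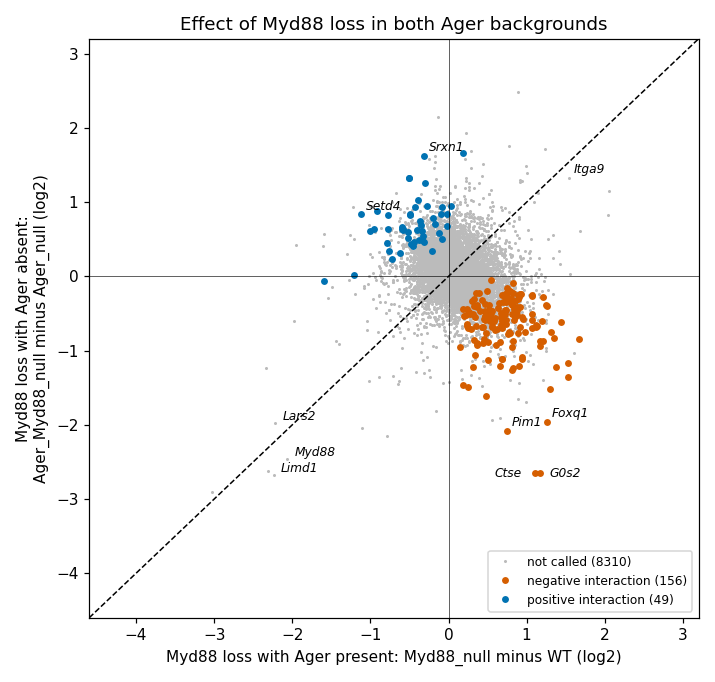
Effect of Myd88 loss on each tested gene with Ager present (x axis, Myd88_null minus WT, log2) and with Ager absent (y axis, Ager_Myd88_null minus Ager_null, log2). Each point is a gene, the dashed line marks equal effects, and the vertical distance from it is the interaction: the 156 orange genes lie below the line, the 49 blue ones above it, and Myd88, Lars2, Limd1 and Itga9, which did not pass, lie between -0.43 and 0.25 from it.

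The number of calls depended on single arrays, while the median estimates of the 205 genes, which were chosen on all arrays, moved little. No gene was called without Myd88_null 3, without Myd88_null 4 or without Ager_Myd88_null 3, where 1863, 1667 and 1761 genes had an unadjusted p under 0.05 in limma and the smallest adjusted p was 0.0676, 0.0522 and 0.0776. There were 2 calls without Ager_Myd88_null 4, 10 without Myd88_null 2, 24 without WT 5, 28 without Ager_null 3, 29 without WT 2, 91 without Ager_null 5, 105 without WT 1 and 109 without Ager_Myd88_null 2. There were 320 without Ager_null 1, 474 without WT 3 and 1739 without Myd88_null 1. In each of these 19 fits all 205 genes kept the sign of their estimate, which their choice on all arrays makes likely. The median over the 156 genes ran from -1.38 to -1.10 and that over the 49 from 1.03 to 1.20, against -1.23 and 1.12 on all arrays. With S range as a fixed block no gene was called and 1128 had an unadjusted p under 0.05, with medians of -1.16 and 1.12. In that fit the Ager_null arrays are tied to the other groups through WT 5 and Myd88_null 4 alone. The share of negative calls was 76.1% with the deposited scaling, 61.2% after quantile normalization (139 negative, 88 positive) and 63.5% after median centring (120 negative, 69 positive).

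**Figure D2:**
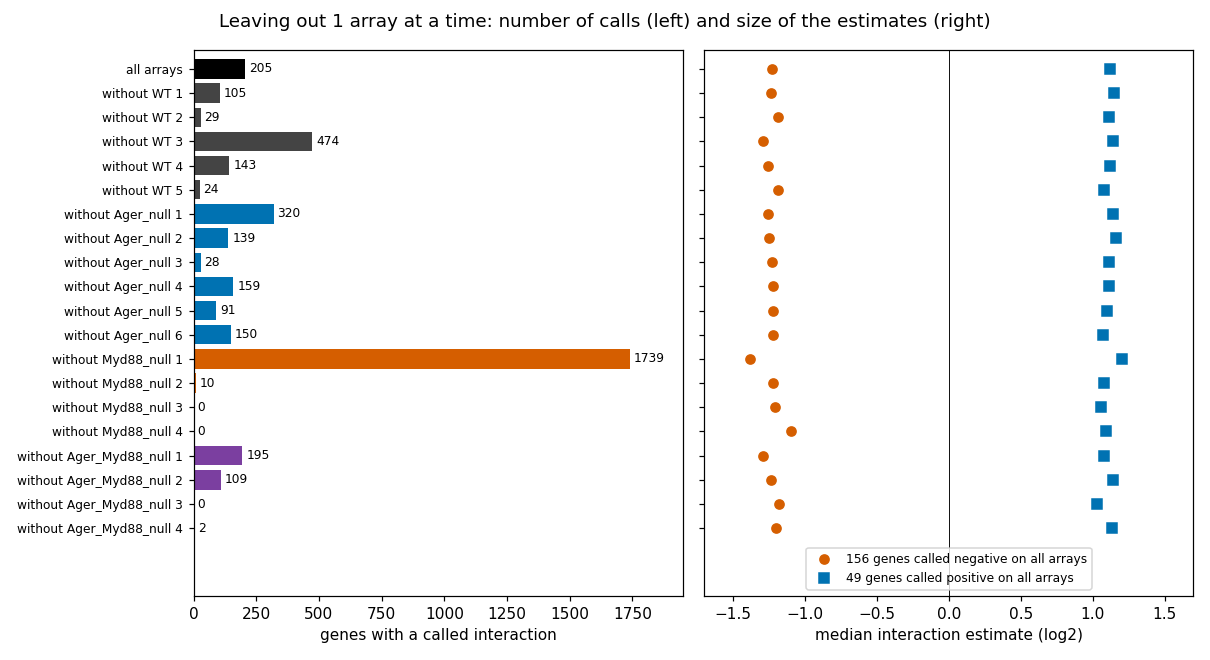
Number of genes with a called interaction when 1 array is left out (left, bars) and the median interaction estimate (right, log2) of the 156 genes called negative (circles) and the 49 called positive (squares) on all arrays. The bars run from 0 to 1739 genes while the medians stay between -1.38 and -1.10 and between 1.03 and 1.20.

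The genes with the most negative estimates included a lipase inhibitor, an aspartic protease, a transcription factor and a kinase. Ctse, an endosomal aspartic protease, was at 5.83, 4.93, 7.66, 5.98 and 6.84 in WT, and in Ager_null ran from 7.58 over a median of 8.67 to 9.48. It was at 6.39, 7.29, 8.81 and 6.90 in Myd88_null and at 5.46, 6.21, 6.45 and 5.59 in Ager_Myd88_null. All 6 Ager_null livers lay above all 4 double-null livers, and the double null lay within the range of WT. The additive value was 9.68 and the measured double-null mean 5.93 ± 0.48 (SD, n = 4), an interaction of -3.75 ± 0.72 (SE; adjusted p = 0.026). Myd88 loss thus went with a fall of Ctse where Ager was absent (-2.65 ± 0.50, adjusted p = 0.0157), while with Ager present the difference was 1.10 ± 0.52 (adjusted p = 0.251). A second, dim Ctse probe set with a mean level of 2.88 gave -0.15.

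Foxq1, a forkhead transcription factor, was at 6.26, 6.74, 8.00, 7.95 and 6.99 in WT, between 7.83 and 9.89 in Ager_null with a median of 8.01, at 7.73, 9.13, 9.39 and 7.56 in Myd88_null and at 6.44, 6.72, 6.62 and 6.22 in Ager_Myd88_null. The double-null arrays lay below every array of both single nulls. Its interaction was -3.23 ± 0.65 (adjusted p = 0.0336), and its other probe set gave -3.62.

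Pim1, a serine/threonine kinase induced through STAT3, was at 5.79, 6.80, 5.40, 5.95 and 5.83 in WT. It ran from 6.51 over a median of 7.58 to 8.46 in Ager_null, lay at 6.25, 6.98, 7.14 and 6.44 in Myd88_null and at 6.03, 5.21, 5.24 and 5.47 in Ager_Myd88_null. Here too the double null lay below both single nulls without overlap, and it overlapped WT. The rise in Ager_null against WT passed the test (1.62 ± 0.31, adjusted p = 0.0235), the difference of Myd88_null from WT was 0.75 ± 0.35 (adjusted p = 0.245), and the interaction was -2.83 ± 0.48 (adjusted p = 0.0255). Its other probe set over the filter, at a mean level of 3.69, gave -1.05.

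G0s2, the inhibitor of the adipose triglyceride lipase, had the most negative estimate and another shape. It was at 8.87, 9.76, 8.85, 10.96 and 9.39 in WT, ran from 7.91 over a median of 9.07 to 10.38 in Ager_null, and was at 9.25, 11.89, 9.81 and 12.01 in Myd88_null and at 8.37, 5.66, 5.61 and 6.35 in Ager_Myd88_null. All 4 double-null arrays lay below all WT and Myd88_null arrays, whereas the Ager_null arrays overlapped WT. The difference of the double null from WT was -3.07 ± 0.71 and did not pass (adjusted p = 0.0983). The interaction of G0s2 was -3.82 ± 0.98 (adjusted p = 0.0491). Ager loss went with a fall where Myd88 was absent (-4.24 ± 0.75, adjusted p = 0.0254).

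Irs2, the adaptor of the insulin receptor that dominates in fasted liver, was at 5.96, 5.71, 6.83, 6.47 and 5.50 in WT, between 6.40 and 7.35 in Ager_null with a median of 7.15, at 6.28, 7.42, 7.49 and 8.38 in Myd88_null and at 6.26, 6.31, 5.20 and 4.15 in Ager_Myd88_null. The Ager_null arrays lay above all double-null arrays, and each single null overlapped WT. Its interaction was -2.82 ± 0.60 (adjusted p = 0.0347).

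The other genes among the 15 most negative ran from -2.88 to -2.07. Fat1, an atypical cadherin, lay above all WT arrays in each Ager_null array (6.14 to 7.62 against 4.04 to 5.93) and between 4.96 and 6.11 in Ager_Myd88_null, with an interaction of -2.88 ± 0.64 (adjusted p = 0.0362). Zfp36l2, which binds and destabilizes AU-rich mRNAs, had -2.70, Slc45a3, a sugar transporter, -2.59, the centrosomal protein Tacc2 -2.51 and the cytoskeletal linker Plec -2.17. Zmiz1, a transcriptional coregulator, had -2.12, Mycbp2, a ubiquitin ligase, -2.12, Mast3, a kinase, -2.08 and Zfyve1, a FYVE-domain protein of lipid droplets and endoplasmic reticulum, -2.07. In these 8 genes after Fat1 both single-null means also lay above WT. In Slc45a3 1 array departed from its group, Ager_null 6 at 5.98 against 7.25 to 7.72 on the others.

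**Figure D3:**
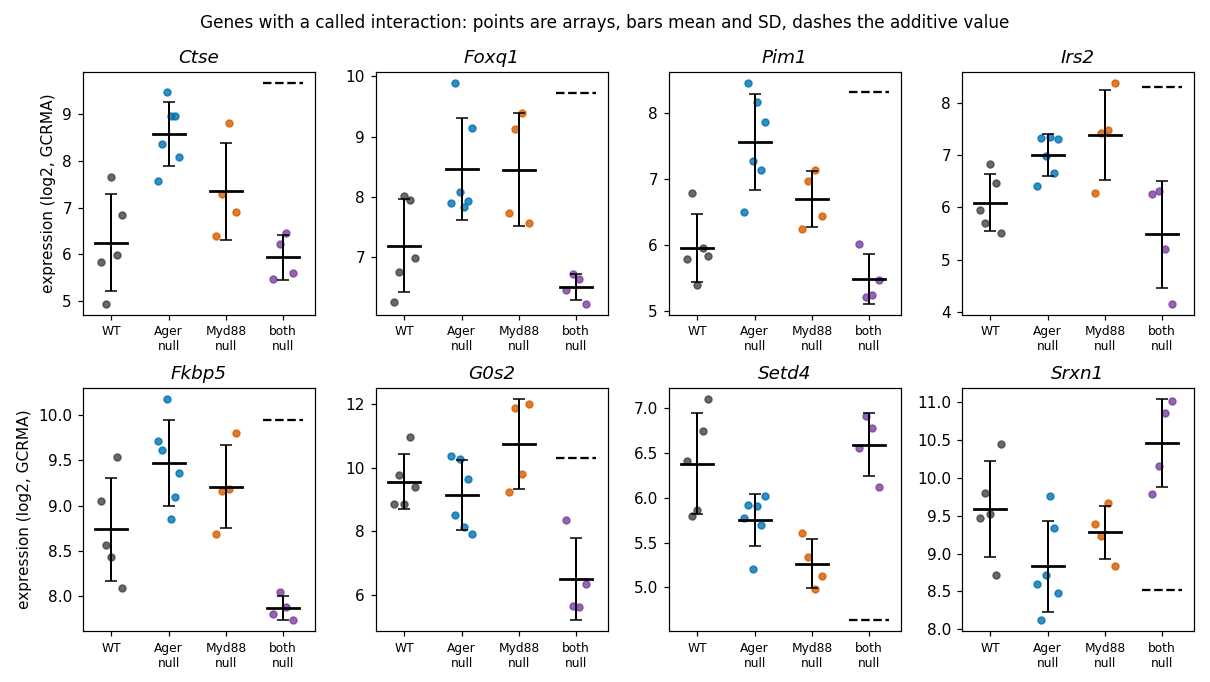
Log2 expression of 8 genes with a called interaction on the 19 arrays: points are arrays, bars the group mean with its SD, and the dashed line over the double null marks the additive value. In Ctse, Foxq1, Pim1, Irs2, Fkbp5 and G0s2 the double-null arrays lie below that line, and in Setd4 and Srxn1 above it.

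The positive estimates were smaller, with a largest value of 1.95. Setd4, a methyltransferase, was at 6.41, 5.79, 5.86, 6.74 and 7.10 in WT, between 5.21 and 6.02 in Ager_null with a median of 5.84, at 5.61, 5.34, 4.98 and 5.13 in Myd88_null and at 6.55, 6.91, 6.78 and 6.11 in Ager_Myd88_null. All double-null arrays lay above all arrays of both single nulls and within the range of WT. Its interaction was 1.95 ± 0.34 (adjusted p = 0.0255).

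Srxn1, the sulfiredoxin that restores oxidized peroxiredoxins, was at 9.47, 9.80, 9.52, 8.71 and 10.45 in WT. It ran from 8.12 over a median of 8.66 to 9.76 in Ager_null, and was at 9.39, 9.23, 9.67 and 8.83 in Myd88_null and at 9.79, 10.16, 10.86 and 11.02 in Ager_Myd88_null. The double null lay above both single nulls without overlap. It rose with Myd88 loss where Ager was absent (1.62 ± 0.34, adjusted p = 0.0225) and differed by -0.31 ± 0.35 where Ager was present (adjusted p = 0.64), an interaction of 1.93 ± 0.48 (adjusted p = 0.0472).

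Atf4, the transcription factor of the integrated stress response, was at 9.14, 9.97, 9.96, 10.24 and 10.06 in WT, between 8.32 and 9.19 in Ager_null with a median of 8.86, at 9.60, 8.92, 8.39 and 9.46 in Myd88_null and at 9.33, 9.72, 9.05 and 9.76 in Ager_Myd88_null. The fall in Ager_null against WT passed the test (-1.05 ± 0.23, adjusted p = 0.0357), and only WT 1 reached down to the Ager_null range. Its interaction was 1.42 ± 0.35 (adjusted p = 0.0453), and another Atf4 probe set over the filter gave 1.23.

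Nip7, a factor of ribosome maturation, was at 9.20, 9.13, 9.43, 9.47 and 9.38 in WT and at 8.94, 8.71, 8.34 and 8.13 in Myd88_null, without overlap. In Ager_null it ran from 8.66 to 9.20 with a median of 8.998, and in Ager_Myd88_null it was at 9.42, 9.13, 9.60 and 9.42. Myd88 loss lowered it with Ager present (fell by 0.79, SE 0.16, adjusted p = 0.0318) and its interaction was 1.24 ± 0.22 (adjusted p = 0.0255). Its other probe set over the filter, at a mean level of 3.90, gave 0.60 (unadjusted p = 0.101 in limma). The histone methyltransferase gene Setdb2 lay at 8.33 to 8.74 in Myd88_null, below all 15 other arrays (9.21 to 10.46), with an interaction of 1.24 ± 0.32 (adjusted p = 0.0491). In Setdb2 the difference of Myd88_null from WT was -1.22 ± 0.23 (adjusted p = 0.0244) and that of the double null from Ager_null 0.02 ± 0.22, so that a change with Myd88 loss was called only where Ager was present, and the interaction is the test of that difference.

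The remaining positive genes among the first 15 were Znhit3 (1.83), Ccdc122 (1.83), the liver anion transporter Slc22a7 (1.79), Zscan21 (1.62), the helicase Blm (1.60), Phf11d (1.60), Cd207 (1.53), Commd2 (1.43), Pdcd2l (1.36), Zfp58 (1.33), the endoplasmic reticulum ADP-ribosyltransferase Parp16 (1.32) and Rilpl2 (1.26). Blm, Phf11d, Cd207 and Zfp58 lay near the filter, with levels of 2.60 to 4.57, 3.22 to 5.18, 2.47 to 4.75 and 3.10 to 4.79. Such genes entered the tests through the groups in which they were higher, and the median of all probe sets lay between 2.75 and 2.83 on each array. Across the 205 genes, 80 had other probe sets over the filter, 128 in all: 121 gave an estimate of the same sign, 98 of them with an unadjusted p under 0.05, and none gave the opposite sign with an unadjusted p under 0.05. These probe sets read the same genes in the same RNA, and the genes were chosen by this interaction. The counts are therefore a description and no independent check of the calls.

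The response programs were read gene by gene against 1.83% negative and 0.575% positive calls over all tested genes and a median estimate of -0.02. In the pathway of the deleted genes, Toll-like receptor and RAGE signalling, 1 of 25 tested members was called. This was Lbp, the serum protein that hands lipopolysaccharide to CD14. Lbp was at 9.74 to 10.57 in WT, 10.48 to 10.75 in Ager_null, 9.89 to 10.68 in Myd88_null and 9.66 to 10.22 in Ager_Myd88_null, with an interaction of -0.95 ± 0.24 (adjusted p = 0.0466). Its other probe set over the filter, at a mean level of 4.72, gave -0.29 (unadjusted p = 0.299 in limma). The Ager_null arrays all lay above the double-null arrays. Among the other members, the IL-1 receptor gene Il1r1 had -1.17 ± 0.34 (adjusted p = 0.0609), Diaph1, whose product binds the cytoplasmic tail of RAGE, -0.76 ± 0.23 (adjusted p = 0.0649), and Irf5, a transcription factor downstream of Myd88, 1.18 ± 0.46 (adjusted p = 0.121). The list median was 0.09 on all arrays, lay between -0.11 (without Myd88_null 4) and 0.18 (without Ager_Myd88_null 4) with 1 array left out, and was -0.15 with S range as a fixed block.

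Of 14 tested NF-kB targets and inflammatory cytokines 1 was called, Bcl3, an atypical IkB protein that acts in the nucleus, at -1.25 ± 0.32 (adjusted p = 0.0491). Both single-null means of Bcl3 lay above WT (7.97 and 7.98 against 7.49) and the double-null mean below it (7.20). Nfkbiz (-0.80), Tnfaip2 (-0.49) and Cxcl10 (0.57) did not pass. In the acute phase and IL-6/STAT3 list 3 of 34 tested members were called, all negative: Pim1, Lbp and Junb, an AP-1 subunit, at -1.01 ± 0.26 (adjusted p = 0.0491). Junb was at 10.31 to 11.09 in Myd88_null and 9.52 to 10.10 in Ager_Myd88_null, without overlap. Il6ra, the IL-6 receptor chain, had -1.52 ± 0.44 (adjusted p = 0.0609), with group means of 4.58 in WT, 4.85 in Ager_null, 6.13 in Myd88_null and 4.88 in Ager_Myd88_null. The secreted acute phase inhibitor chain Itih3 had -0.52 ± 0.14 (adjusted p = 0.0539). The median of the list was -0.23, with -0.36 without WT 4 and -0.59 with S range as a fixed block. Immediate early genes, the transcription factors induced first when hepatocytes leave quiescence, had 1 call among 32, Junb, with Nr4a1 at -1.52 (adjusted p = 0.0527), Myc at -1.77 (adjusted p = 0.0539) and Fosl2 at -1.08 (adjusted p = 0.0763) not passing.

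Glucocorticoid-responsive genes gave the most negative calls of any list, 4 of 19 and none positive. The list was chosen with earlier results of these data known, which had named Fkbp5, so this rank is a description only. The list median was -0.47 and lay between -0.72 (without Myd88_null 1) and -0.38 (without Myd88_null 3) when 1 array was left out. Fkbp5, a cochaperone that restrains the glucocorticoid receptor and is among its best known targets, was at 9.05, 8.56, 8.44, 9.54 and 8.09 in WT and ran from 8.85 over a median of 9.49 to 10.18 in Ager_null. It was at 8.69, 9.16, 9.19 and 9.81 in Myd88_null and at 7.80, 8.04, 7.88 and 7.73 in Ager_Myd88_null. The double-null arrays lay below all 15 others. Its interaction was -2.09 ± 0.40 (adjusted p = 0.026), and the other probe set over the filter gave -2.19. Fkbp5 fell with Myd88 loss where Ager was absent (-1.61 ± 0.27, adjusted p = 0.0073) and differed by 0.47 ± 0.28 with Ager present.

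Klf9, a Krüppel-like transcription factor, lay in every Ager_null array (12.28 to 12.81) above every WT array (11.24 to 12.19), at 11.28, 12.11, 12.41 and 12.65 in Myd88_null and at 11.55 to 11.86 in Ager_Myd88_null. Its interaction was -1.30 ± 0.32 (adjusted p = 0.0447). Zbtb16, the zinc finger factor PLZF, was at 6.91 to 7.55 in WT, 7.56 to 7.96 in Ager_null, 7.63 to 8.04 in Myd88_null and 7.03 to 7.52 in Ager_Myd88_null. Both single nulls of Zbtb16 lay above WT and above the double null without overlap, and its interaction was -1.01 ± 0.20 (adjusted p = 0.0289). Lpin1, the phosphatidate phosphatase and PPAR-alpha coactivator, had -1.26 ± 0.31 (adjusted p = 0.0444), with 12.59 to 13.18 in Ager_null and 11.75 to 12.28 in Ager_Myd88_null. Per1 (-0.66, adjusted p = 0.101) and Per2 (-1.83, adjusted p = 0.108) did not pass, and Pck1 (-0.23), Tat (-0.15), Sgk1 (0.15) and Mt1 (0.17), further genes of the list, had estimates near 0. Other uncalled members lay further from 0, among them Lcn2 (-1.03), Ddit4 (-0.93) and Nfil3 (-0.64). In the list 14 estimates were below 0 and 5 above it. The largest positive one was that of Tsc22d3, at 0.63 (adjusted p = 0.47).

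Of 15 tested clock genes 1 was called. Bhlhe40, a repressor that competes with CLOCK and ARNTL at E-boxes, was at 10.64 to 11.76 in WT, 11.72 to 11.99 in Ager_null, 11.68 to 12.36 in Myd88_null and 11.19 to 11.51 in Ager_Myd88_null. Each single null lay wholly above the double null, and the interaction was -1.40 ± 0.26 (adjusted p = 0.026). Other clock members with negative estimates that did not pass were Hlf (-1.35, adjusted p = 0.0556), Rora (-1.59, adjusted p = 0.085) and Clock (-1.04, adjusted p = 0.0941), while Noct, a NADPH phosphatase, had 0.93 (adjusted p = 0.0691). The list median was -0.40, and -0.19 with S range as a fixed block. The labels give a light and dark cycle but no hour of surgery or death, so the time of day cannot be told apart from the groups.

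Metabolic genes had mostly negative estimates and few calls. Among genes of gluconeogenesis, glycogen and insulin signalling 20 of 23 estimates were below 0 (4403 of 8515 over all tested genes), with a median of -0.39 (-0.19 with S range as a fixed block), and Irs2 and Ppp1r3b were called. Ppp1r3b, the subunit that directs protein phosphatase 1 to glycogen, was at 9.76 to 10.44 in WT, 10.32 to 10.60 in Ager_null, 10.01, 10.65, 10.57 and 11.25 in Myd88_null and 9.90, 9.77, 9.15 and 9.32 in Ager_Myd88_null. The double null of Ppp1r3b lay below both single nulls without overlap, and its interaction was -1.39 ± 0.28 (adjusted p = 0.0334). Foxo3 (-1.13), Pcx (-0.52) and Foxo1 (-1.11) had adjusted p-values of 0.0539, 0.0608 and 0.0649. In fatty acid and triglyceride synthesis 18 of 19 estimates were below 0, with a median of -0.44, and only Lpin1 passed, ahead of Acacb (-1.75, adjusted p = 0.0646), Acly (-0.74, adjusted p = 0.0725) and Mlxipl, the carbohydrate sensor ChREBP (-0.61, adjusted p = 0.0823). In the lipid droplet list 1 of 14 was called, G0s2, with Hilpda, another inhibitor of the same lipase, at -2.60 ± 0.78 (adjusted p = 0.0646). At an unadjusted p under 0.05 stood 27.2% of all tested genes, 15.6% with a negative and 11.7% with a positive estimate, and counts at that level below are to be read against these. PPAR-alpha and oxidation genes had no call among 19 by limma, 4 with an unadjusted p under 0.05, all negative, and a median of -0.31, which was -0.14 without Myd88_null 4 and -0.07 with S range as a fixed block. Cholesterol synthesis went the other way, with 15 of 19 estimates above 0 and a median of 0.31, but had no call by limma. It had 4 members with an unadjusted p under 0.05, 3 positive and 1 negative, Srebf2 at -0.54. The median of this list was 0.06 with S range as a fixed block and 0.10 without Ager_null 6. It was 0.50, 0.16 and 0.20 without Ager_Myd88_null 1, 2 and 4.

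Of 28 tested members of the unfolded protein response 3 had a negative and 1 a positive call. The negative ones were Sel1l (-1.81 ± 0.39, adjusted p = 0.0347) and Syvn1 (-1.34 ± 0.33, adjusted p = 0.0465), which together form the ubiquitin ligase that clears misfolded proteins, and Creld2, a stress-induced protein of the endoplasmic reticulum (-1.18 ± 0.28, adjusted p = 0.0388). The positive call was Atf4. Estimates of the other 24 members lay on both sides, from Atf6 at -0.89 to Sdf2l1 at 0.83. Sel1l was at 8.19 to 9.20 in WT, 9.03 to 9.61 in Ager_null, 8.61 to 10.23 in Myd88_null and 7.50 to 8.63 in Ager_Myd88_null, with Ager_null wholly above the double null. Among the chaperones and folding enzymes of the list, Pdia6 had -0.57, Dnajb11 -0.42, Hsp90b1 -0.34, Canx -0.21, Hspa5 -0.21, Dnajc3 -0.21, Calr -0.20, Pdia3 -0.19, Hyou1 0.03, Pdia4 0.19 and Dnajb9 0.34, and none of these passed. Cytosolic heat shock genes had no call among 17 by limma and 5 members with an unadjusted p under 0.05, all negative, among them Hsph1 at -1.91 (adjusted p = 0.0887). In the NRF2 list Srxn1 was 1 call among 18, with Hmox1 (1.51, adjusted p = 0.0976) and Nqo1 (0.74, adjusted p = 0.187) not passing and Gclm (-0.07) and Txnrd1 (-0.25) near 0. In ribosome biogenesis Nip7 was 1 call among 27, with Polr1c (0.96, adjusted p = 0.0649) and Utp20 (-1.18, adjusted p = 0.0518) on opposite sides. Interferon-stimulated, MAPK and growth factor, p53, cell cycle and bile acid lists had no call in limma among 19, 22, 17, 13 and 24 tested members, with 1, 6, 2, 2 and 2 at an unadjusted p under 0.05.

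**Figure D4:**
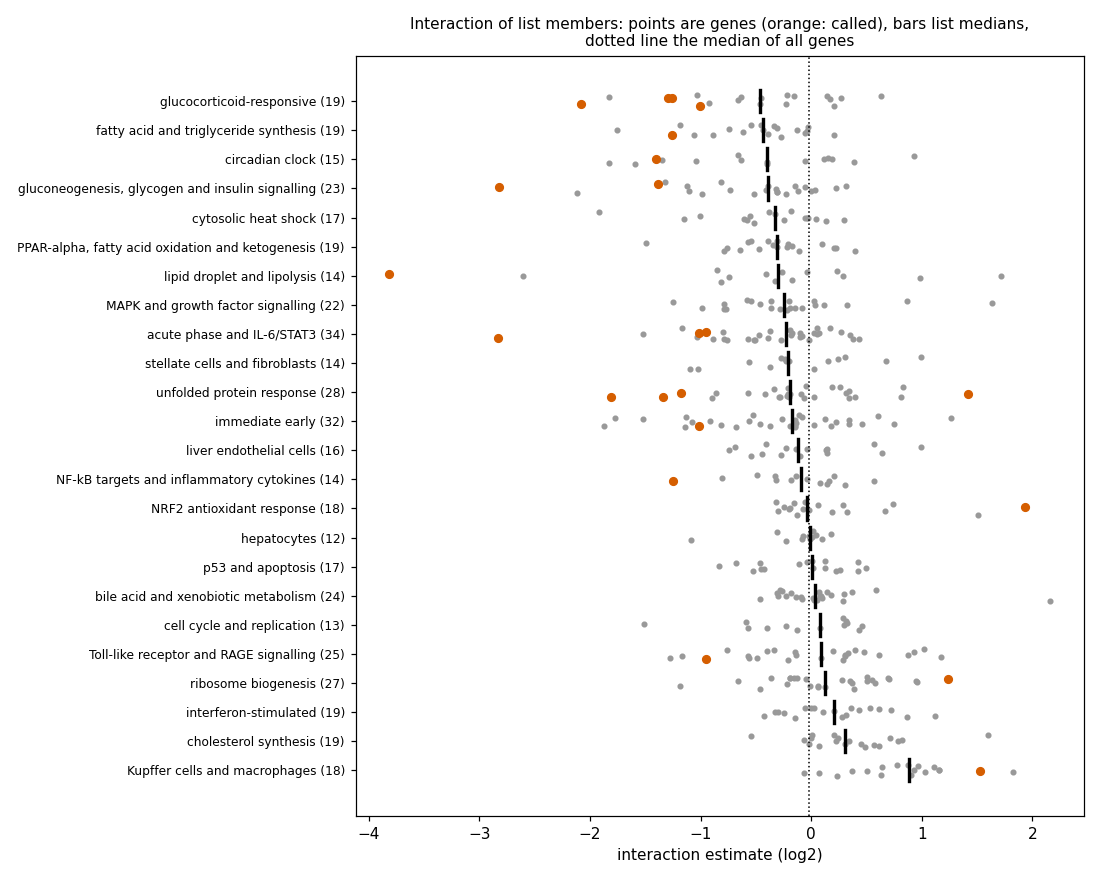
Interaction estimate (x axis, log2) of each tested member of the lists with at least 10 tested genes: points are genes, orange ones passed the test, black bars are list medians and the dotted line is the median of all genes. The medians run from -0.47 for glucocorticoid-responsive genes to 0.89 for Kupffer cell markers.

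Of the lists with at least 10 tested members, Kupffer cell and macrophage markers had the highest median, 0.89, with 17 of 18 estimates above 0 and 1 call, Cd207. Cd207, which encodes the lectin langerin, was at 4.18 to 4.75 in WT, 3.51 to 4.58 in Ager_null, 3.01, 2.71, 3.06 and 2.47 in Myd88_null and 3.89, 3.18, 4.39 and 4.37 in Ager_Myd88_null. Myd88_null lay below all other groups, at about the median of all probe sets of an array (2.75 to 2.83), so its level there is not told from background and the size of the difference is uncertain. Cd207 also passed the filter only through the groups in which it was higher. The fitted interaction was 1.53 ± 0.33 (limma, adjusted p = 0.0347). Fcgr1 (1.11, adjusted p = 0.0595), Lyz2 (1.83, adjusted p = 0.134) and Cd5l (0.96, adjusted p = 0.17) did not pass. The summed level of the 18 markers ran from 13.57 to 14.27 in WT, 13.35 to 14.18 in Ager_null, 12.37 to 13.99 in Myd88_null and 13.72 to 14.26 in Ager_Myd88_null (log2 of the sum), and the groups overlapped. The lowest value was that of Myd88_null 4, with 12 of 18 markers over log2 4 against 15 or more on each other array. Without that array the list median was 0.41, and with S range as a fixed block 0.15. In whole liver, fewer cells of a type and less RNA per cell cannot be told apart. Of the endothelial and stellate markers none of 16 and none of 14 was called by limma, with 2 and 3 at an unadjusted p under 0.05. Only 2 neutrophil markers were tested, S100a8 (1.02, adjusted p = 0.368) and S100a9 (0.93, adjusted p = 0.431), both ligands of RAGE and of a Toll-like receptor. The part of the non-hepatocyte cells in the calls of other genes was not tested.

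The promoters of 3 of these genes are shown because their calls lie at the ends of the lists they belong to: Fkbp5 and Irs2 among the negative estimates and Srxn1 among the positive ones. Each is the 250 bases before the start site as RefSeq gives it on the assembly GRCm38.p6, written from 5′ to 3′ on the strand of the gene, with matches to the searched motifs in capitals. They are Fkbp5 at chr17:28486150-28486399 (minus strand), Irs2 at chr8:11008930-11009179 (minus strand) and Srxn1 at chr2:152105274-152105523 (plus strand).
Fkbp5: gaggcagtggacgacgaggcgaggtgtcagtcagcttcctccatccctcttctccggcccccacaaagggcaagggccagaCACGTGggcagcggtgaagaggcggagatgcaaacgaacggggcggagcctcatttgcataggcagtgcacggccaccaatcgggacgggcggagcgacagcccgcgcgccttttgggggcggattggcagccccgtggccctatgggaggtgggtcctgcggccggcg
Irs2: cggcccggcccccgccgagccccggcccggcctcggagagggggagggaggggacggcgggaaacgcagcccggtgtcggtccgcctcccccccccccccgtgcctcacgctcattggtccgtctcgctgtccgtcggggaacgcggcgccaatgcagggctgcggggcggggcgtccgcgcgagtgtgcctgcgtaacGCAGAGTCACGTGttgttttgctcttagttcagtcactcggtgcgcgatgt
Srxn1: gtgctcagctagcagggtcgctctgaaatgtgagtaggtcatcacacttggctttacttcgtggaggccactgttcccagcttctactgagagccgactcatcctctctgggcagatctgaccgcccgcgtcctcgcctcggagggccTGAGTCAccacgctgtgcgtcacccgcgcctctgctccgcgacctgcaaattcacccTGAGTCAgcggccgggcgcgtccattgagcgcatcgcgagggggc
The motifs were searched on both strands: CACGTG, the E-box bound by clock and other bHLH factors, TGACTCA, the AP-1 site, TGACNNNGC, the core of the antioxidant response element, and TTCNNNGAA, a STAT site. Fkbp5 holds 1 E-box. Irs2 holds 1 E-box that overlaps 1 antioxidant core on the opposite strand, and Srxn1 holds 2 AP-1 sites that read TGAGTCA on the strand shown. The E-box stood in 8.72% of 172 promoters of genes with a negative interaction and in 8.70% of 8944 promoters of tested genes. The AP-1 site stood in 11.5% of 52 promoters of genes with a positive interaction, which is 6 promoters, against 3.24% of those of tested genes and 2.33% of those with a negative interaction. For the antioxidant core the shares were 12.2% for negative, 7.69% for positive and 12.1% for tested, and for the STAT site 5.81%, 1.92% and 5.57%. A promoter was listed for 126 of the 156 negative and 42 of the 49 positive genes, some genes with several, and a match is a description of the letters only.

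For several genes with large differences in a single null, the 95% interval of the interaction held 0. Myd88 and Lars2 tell little here, since both lay under log2 4 on every array without Myd88 and passed the filter through the other groups alone, so that a further fall in the double null could hardly show. Myd88 itself had -0.40 (95% interval -1.13 to 0.34). Lars2, the mitochondrial leucyl-tRNA synthetase near Myd88 on chromosome 9, was at 5.24 to 5.64 in WT and 3.15 to 3.23 in Myd88_null, and at 4.89 to 5.77 in Ager_null and 3.01 to 3.68 in Ager_Myd88_null. It was low wherever Myd88 was absent, and its interaction was 0.25 (-0.23 to 0.73). Limd1, a LIM-domain adaptor, had -0.43 (-1.23 to 0.36) and Itga9, an integrin chain raised in both groups without Myd88, -0.22 (-0.67 to 0.24). On the Ager side, the ribosome assembly kinase Riok2 had 0.51 (-0.39 to 1.40) and Zfp944 0.06 (-0.57 to 0.69). The class I gene H2-Bl was at 6.73 to 7.63 in WT and 8.87 to 9.73 in Ager_null, and at 5.71 to 7.14 in Myd88_null and 9.11 to 9.39 in Ager_Myd88_null, high wherever Ager was absent. Its interaction was further from 0, at 0.85 (0.14 to 1.56), and did not pass after adjustment (limma, adjusted p = 0.13). The lipid transporter Abca3 had -1.09 (-2.20 to 0.02), which did not pass either. The narrowest intervals around 0 among genes called in a single null against WT belonged to Glo1, the glyoxalase that removes the precursors of the glycated ligands of RAGE (-0.21, -0.51 to 0.09), the ubiquitin ligase Rnf5 (-0.19, -0.52 to 0.14), the transporter Slc16a12 (-0.07, -0.52 to 0.38), Sik1, a kinase (-0.04, -0.52 to 0.44), and Gfer, the augmenter of liver regeneration (-0.09, -0.55 to 0.38). These intervals still allow departures of up to about 0.5 from the sum, so equal action was not shown. The genes with the narrowest intervals were chosen without regard to distance from either locus. The part of DNA beside a null allele in their differences was not tested. Nor was it tested for the genes given above on the Myd88 and Ager sides, H2-Bl, Riok2, Zfp944 and Abca3 included. A level that goes with the Ager genotype is therefore not told apart from one carried by linked DNA.

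Igha and Postn were higher than in WT in all 3 null groups, the double null included. Igha, the constant chain of IgA and a mark of plasma cells, was at 3.60 to 4.22 in WT, 4.79 to 5.75 in Ager_null, 5.12, 6.71, 6.93 and 5.18 in Myd88_null and 5.90 to 6.46 in Ager_Myd88_null. All 3 null groups lay above WT, and the double-null mean of 6.12 lay below the additive value of 7.34, with an interaction of -1.21 ± 0.43 (adjusted p = 0.0987). Igha in WT lay around the filter at log2 4, so the size of its rise and its additive value are uncertain. Postn, a matrix protein of stellate cells, likewise lay above WT in all 3 null groups, with means of 7.01 in WT, 7.93 in Ager_null, 8.35 in Myd88_null and 8.18 in Ager_Myd88_null and an interaction of -1.09 ± 0.29 (adjusted p = 0.0512). Lgals1, a galectin, was low in Ager_null (8.73 to 9.83, against 10.09 to 11.21 in WT). In Ager_Myd88_null it overlapped WT, at 10.27 to 11.28, with an interaction of 1.08 ± 0.34 (adjusted p = 0.0733). Tedc2, a tubulin-linked gene on chromosome 17, was called and had a shape of its own. It was at 8.80 to 9.38 in WT, 6.94 to 8.95 in Ager_null, 9.83 to 9.94 in Myd88_null and 6.44 to 7.54 in Ager_Myd88_null, an interaction of -2.05 ± 0.53 (adjusted p = 0.0479). Within Ager_null the Tedc2 values formed 3 arrays at 8.89 to 8.95, 1 at 7.91 and 2 at 6.94.

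DNA beside a targeted gene can come along with the null allele, and the labels do not say whether it did here. The 150 annotated genes on each side of each locus were therefore counted apart. Among those near Ager 1 of 87 tested genes had a called interaction (1.15%) and among those near Myd88 2 of 61 (3.28%), against 2.41% of all tested genes. They were Hnrnpm, a splicing factor, near Ager (-1.24 ± 0.25, adjusted p = 0.0334), and near Myd88 the translation factor Eif1b (0.59 ± 0.15, adjusted p = 0.0491) and the kinase Oxsr1 (-0.92 ± 0.20, adjusted p = 0.036). By whole chromosome the share was 3.49% on 17 (14 of 401), 3.53% on 9 (17 of 481) and 3.72% on 14 (11 of 296). Of the named genes with a call, Pim1, Fkbp5, Slc22a7, Tedc2 and Zfp36l2 lie on chromosome 17 and Zbtb16 and Parp16 on chromosome 9, outside the counted windows.

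Genes with a negative interaction were longer than others. The median distance from start to end of the gene in RefSeq was 58.4 kb for the 156 negative, 17.1 kb for the 49 positive and 23.3 kb for all tested genes. Over quartiles of this span, from the shortest to the longest, the median interaction of all tested genes went from 0.20 over 0.07 and -0.09 to -0.31, and negative calls numbered 17, 16, 42 and 81 of 2126 genes each. Positive calls numbered 17, 15, 13 and 4. In the longest quartile the median difference from WT was 0.13 in Ager_null, 0.24 in Myd88_null and 0.04 in Ager_Myd88_null, and in the shortest -0.06, -0.04 and 0.11. The difference between the longest and the shortest quartile, relative to the WT mean, was -0.02, -0.09, 0.22, 0.03 and -0.11 on the WT arrays and 0.07 to 0.39 on the 6 Ager_null arrays. It was -0.09, 0.23, 0.27 and 0.62 on the Myd88_null arrays and 0.04, 0.05, -0.19 and -0.12 on the Ager_Myd88_null arrays. Every Ager_null array and 3 of 4 Myd88_null arrays lay above every double-null array, Myd88_null 4 was the highest and Myd88_null 1 lay among the double-null arrays. The 3′ minus 5′ difference of the Gapdh control probe sets, a measure of RNA integrity, was 0.07 to 0.41 in WT, 0.08 to 0.15 in Ager_null, 0.14 to 0.44 in Myd88_null (highest in Myd88_null 4) and 0.15 to 0.28 in Ager_Myd88_null. The same difference for Actb was 1.23 to 1.52, 1.10 to 1.68, 1.19 to 1.37 and 1.18 to 1.54 in these groups. For Actb Myd88_null 4 had the lowest value of its group, 1.19, and Ager_null 6 the highest of all arrays. The part of gene length or RNA integrity in the calls was not tested.

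**Figure D5:**
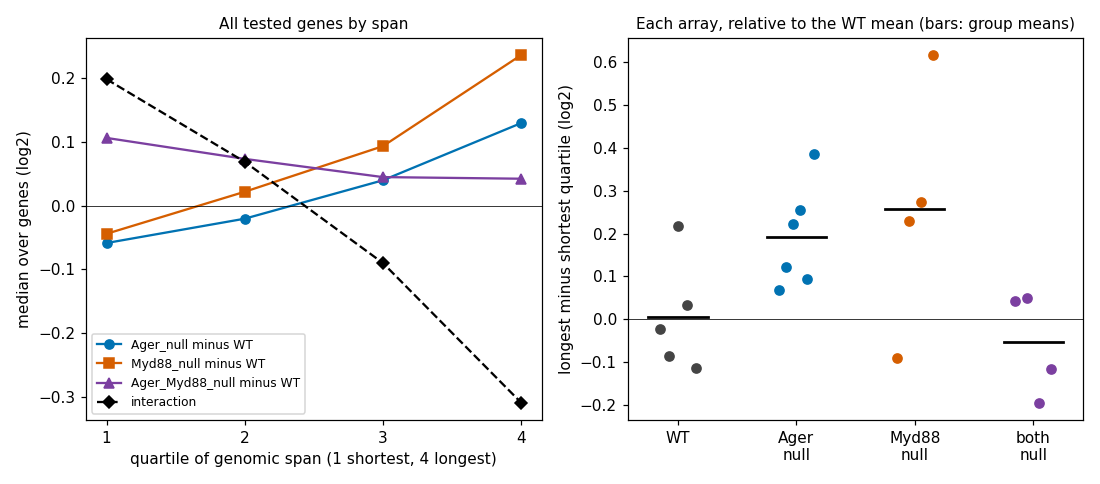
Gene span and the interaction. Left: median over the tested genes of each span quartile (x axis, 1 shortest to 4 longest) of the 3 differences from WT and of the interaction (y axis, log2), which goes from 0.20 to -0.31. Right: median of the longest minus the shortest quartile on each array relative to the WT mean (log2), points being arrays and bars group means, with the Ager_null arrays at 0.07 to 0.39 and the double-null arrays at -0.19 to 0.05.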

How the data were processed

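The log2 values were used as the authors deposited them, 1 per probe set and array, computed with GCRMA 2.16 per the submitters' processing notes. Per the labels' protocols RNA was amplified with a 3′ IVT kit. Of 45101 probe sets, 64 were controls, 34945 carried 1 gene symbol, 932 several and 9160 none. For each of 18193 genes the brightest probe set on average was taken, and 9678 genes not over log2 4 on at least 4 arrays were left out.

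The 4 groups were fitted together with limma 3.58.1 in R 4.3.3 (lmFit, eBayes, two-sided, Benjamini-Hochberg over the 8515 genes, called at an adjusted p under 0.05). This fit gave every adjusted p printed, errors of differences are its SEs and errors of means SDs. The script was tested on simulated data. Precision is set by the number of arrays, and read depth does not apply. Promoters come from RefSeq (GRCm38.p6) and were searched with Python 3.11.15.

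Genes were named by rule: Ager and Myd88, the 15 largest estimates in each direction among calls, called and lowest-p members of 20 pathway and 10 marker lists, called genes near either locus, genes that earlier results named in other comparisons, and 5 genes with the narrowest interval around 0. Foxo1, Per1, Per2, Clock, Tsc22d3, Lcn2, Ddit4, Nfil3, S100a8 and S100a9 lie outside this rule. So do list members given as near 0 and the further members of the unfolded protein response. All of these were chosen after their values were seen. Members and lists were chosen with earlier results of these data known. Alternatives covered scaling, filter, floor, probe summary, variance model, array weights, unlogged values, S range, the replicate number as a block and each array left out. Same-numbered arrays did not deviate together: their correlations ran from -0.302 to 0.471 and 3 of 16 arrays matched their own number best, so the numbers were not used as pairs.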

Additional observations from a re-analysis of the deposited data

Results flagged for a closer look

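The interaction is itself a difference between 2 effects of Myd88 loss, with and without Ager, and 205 genes passed its test. The 47 of them named in the text are listed here. Those with a positive estimate were Setd4 (1.95), Srxn1 (1.93), Znhit3 (1.83), Ccdc122 (1.83), Slc22a7 (1.79), Zscan21 (1.62), Blm (1.60), Phf11d (1.60), Cd207 (1.53), Commd2 (1.43), Atf4 (1.42), Pdcd2l (1.36), Zfp58 (1.33), Parp16 (1.32), Rilpl2 (1.26), Nip7 (1.24), Setdb2 (1.24) and Eif1b (0.59). Those with a negative estimate were G0s2 (-3.82), Ctse (-3.75), Foxq1 (-3.23), Fat1 (-2.88), Pim1 (-2.83), Irs2 (-2.82), Zfp36l2 (-2.70), Slc45a3 (-2.59), Tacc2 (-2.51), Plec (-2.17), Zmiz1 (-2.12), Mycbp2 (-2.12), Fkbp5 (-2.09), Mast3 (-2.08), Zfyve1 (-2.07), Tedc2 (-2.05), Sel1l (-1.81), Bhlhe40 (-1.40), Ppp1r3b (-1.39), Syvn1 (-1.34), Klf9 (-1.30), Lpin1 (-1.26), Bcl3 (-1.25), Hnrnpm (-1.24), Creld2 (-1.18), Junb (-1.01), Zbtb16 (-1.01), Lbp (-0.95) and Oxsr1 (-0.92). All are log2 estimates of the interaction.

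Among 456 groups of 4 to 6 arrays over the named genes, 26 held a single array far from the rest by Dixon's criterion, and chance alone marks about 1 in 20 groups. In WT these were Atf4 on array 1 (9.14), Parp16 on array 3 (8.27), Mvd (5.30), Fitm1 (8.68) and H2-Bl (7.63) on array 4, and Ppara (8.31) and Smad6 (2.90) on array 5. In Ager_null they were Glo1 on array 1 (13.66), Hnrnpm on array 2 (6.97), Tnfaip2 on array 5 (5.05), and Slc45a3 (5.98), Hilpda (5.42) and H2-Bl (9.73) on array 6. In Myd88_null they were Zfp36l2 (9.31) and Gfer (10.89) on array 1, Setdb2 on array 3 (8.74), and Id1 (5.90) and Cd5l (9.86) on array 4. In Ager_Myd88_null they were Foxo3 on array 1 (8.73), Creld2 (9.98) and Col1a2 (3.27) on array 2, Znhit3 (7.67), Commd2 (9.48) and Hnrnpm (6.11) on array 3, and Bhlhe40 (11.51) and Riok2 (7.15) on array 4. No array had more than 3 of these.

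Of 1147 probe sets with no gene symbol or several that passed the same filter, 22 had a called interaction in limma (20 negative, 2 positive), and they are not named here.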

How the results depend on the processing

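All named estimates that passed on all arrays kept their sign in every alternative that gave a value, and none reversed. These estimates were chosen for lying far from 0 on the same arrays. A change of sign was therefore unlikely from the start, and its absence is no test of them. Counts moved more. Against 205 calls (49 positive, 156 negative), there were 76 (17 and 59) with no filter on low values, 1382 (477 and 905) with array weights, 3 (1 and 2) on unlogged values and 0 with S range as a fixed block. Positive calls numbered 88 after quantile normalization and 30 with S range as a random block, where the totals were 227 and 139. With the replicate block there were 37 calls (8 and 29), 31 of them among the 205. Leaving out 1 array gave 0 to 1739 calls, 0 to 675 positive and 0 to 1064 negative. Of the alternatives chosen after seeing the data, leaving out both Myd88_null 1 and Myd88_null 4 gave 692 (223 and 469), and testing every probe set on its own gave 212 (36 and 176). The cause of these moves was not tested. Median centring (189), a filter at log2 6 (237), a floor at log2 4 (173), the mean of a gene's probe sets (281) and the trended robust variance (279) stayed within 1.5 times of 205. With 4 to 6 arrays in a group and 1 reading of each liver, the calls rest on estimates whose median SE was 0.277. Low levels near log2 4 limit what can be read for Cd207, Blm, Phf11d and Zfp58.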
